A study of Homo sapiens with 6 samples.

Results

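The genes described here are 10 markers and regulators of epithelial-mesenchymal transition (EMT), namely CDH1, EPCAM, CDH2, VIM, FN1, TWIST1, SNAI1, SNAI2, ZEB1 and ZEB2. They were chosen by name, with earlier results of these data known, as the rows of the expression table that carry these symbols. All 10 were found among the 58024 genes of the table. EMT is the shift of a cell from a state held to its neighbours by E-cadherin junctions to a motile state with a vimentin cytoskeleton and a fibronectin-rich matrix. The factors TWIST1, SNAI1, SNAI2, ZEB1 and ZEB2 bind E-box motifs in DNA and are known as repressors of E-cadherin and other epithelial genes. In prostate cancer the programme has been studied in relation to invasion, metastasis and loss of luminal identity.

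RNA-Seq was compared between C4-2B parental cells (3 libraries) and C4-2B enzalutamide resistant cells (3 libraries). C4-2B is an established human prostate cancer line that descends from LNCaP through C4-2, and enzalutamide is an antagonist of the androgen receptor. The resistant cells were the pooled survivors of selection in 1 to 20 µM enzalutamide over at least 6 months and were kept in 5 µM of the drug. No source used here describes a repeat of that selection. The parental cells were grown with dimethyl sulfoxide as vehicle (1% by the labels, while the study's methods give a lower limit), and all 6 libraries came from cells in the same serum-containing medium. The protocol places 10 µM enzalutamide before RNA extraction and names both kinds of cells, so the exposure of the parental cells at that step is not clear. The table names no unit, and its values were taken as FPKM, the unit that Cufflinks gives. FPKM is a measure of fragments scaled to the length of the transcript and to the depth of the library, which can be compared between genes. The libraries held an estimated 13700000 to 20000000 reads, and 1 read on a transcript of 2000 bases was worth 0.0277 to 0.0406 FPKM. Libraries of the same cells correlated with a Pearson r of 0.911 to 0.929 over genes, and libraries of different cells with 0.782 to 0.802. The groups were compared with limma on log2(FPKM + 0.1) over the 24468 genes whose mean reached 0.1 FPKM. A gene is called changed where its p, adjusted over all of these genes by the Benjamini-Hochberg method, was under 0.05. No source says that the libraries of a group came from separate cultures, so the p values measure the spread between these libraries, which may be technical. In bulk RNA, fewer cells of a type and less RNA per cell cannot be told apart.

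The reference promoter table held an entry for 5 of the 10 genes, FN1, VIM, CDH2, ZEB1 and ZEB2. CDH1, EPCAM, SNAI1, SNAI2 and TWIST1 are named only. The 250 bases before the transcription start are shown for the pair of mesenchymal genes that were lower in the resistant libraries and for the first start of CDH2, the mesenchymal gene that was higher, so that the promoters of genes with opposite changes can be read side by side. The sequences are RefSeq's on GRCh38.p14, written 5′ to 3′ on the strand of the gene, and capitals mark the searched motifs found on either strand.
FN1, chr2:215436069-215436318, minus strand: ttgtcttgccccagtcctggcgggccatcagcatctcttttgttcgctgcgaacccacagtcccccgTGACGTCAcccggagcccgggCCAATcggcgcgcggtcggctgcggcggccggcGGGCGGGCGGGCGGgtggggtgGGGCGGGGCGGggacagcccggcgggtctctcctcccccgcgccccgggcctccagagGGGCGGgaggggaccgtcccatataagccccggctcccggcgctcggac
VIM, chr10:17227991-17228240, plus strand: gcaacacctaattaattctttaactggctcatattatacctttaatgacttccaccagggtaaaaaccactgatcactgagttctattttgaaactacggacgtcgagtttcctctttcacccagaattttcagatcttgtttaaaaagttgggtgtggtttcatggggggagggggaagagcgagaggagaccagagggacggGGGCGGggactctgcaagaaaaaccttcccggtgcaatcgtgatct
CDH2, chr18:28177131-28177380, minus strand: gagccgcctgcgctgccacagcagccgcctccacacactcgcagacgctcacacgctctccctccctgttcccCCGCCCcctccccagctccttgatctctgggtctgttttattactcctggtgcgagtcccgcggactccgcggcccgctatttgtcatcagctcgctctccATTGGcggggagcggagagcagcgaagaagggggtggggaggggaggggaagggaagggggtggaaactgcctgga
The FN1 window was 76.4% G and C, with 32 CpG dinucleotides. It held the palindrome TGACGTCA, the cyclic AMP response element, at position −183 from the start, a CCAAT box at −162 and 6 GC boxes (GGGCGG or CCGCCC), some of which overlap each other. Its first 66 bases overlap FN1-DT, a divergent transcript on the other strand, and its last 5 bases lie in the annotated FN1 5′ UTR. The VIM window was 46.0% G and C with 8 CpG dinucleotides, held 1 GC box and lies within VIM-AS1, on the other strand, but in none of its exons. The CDH2 window was 66.0% G and C with 17 CpG dinucleotides, held 1 GC box and 1 CCAAT box and lies in a longer annotated CDH2 transcript, outside its exons. The E-box CAGGTG or CACCTG, bound by the ZEB and SNAIL factors, was in none of these 3 windows and in 2 of the 12 windows of the 5 genes, both of them ZEB1 starts. The AP-1 site TGACTCA or TGAGTCA and the TATA box TATAAA or TTTATA were searched as well and were in none of the 3 windows. Of the 12 windows, 1 held a TATA box, at another start of CDH2 that is not shown. There it lay at −32, with a CCAAT box at −67. Which CDH2 start was in use was not tested. Over all 35116 promoter windows of 250 bases, 17.5% held that E-box, 1.65% TGACGTCA, 42.6% a GC box, 32.0% a CCAAT box (CCAAT or ATTGG), 4.203% an AP-1 site and 10.7% a TATA box. A match describes the letters of the window only.

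Of the 10 genes, 8 passed the filter on low values, and all 8 were called, 2 higher and 6 lower in the resistant libraries. The libraries of the groups did not overlap for any of the 8. Over all genes tested, 44.4% were called, 22.1% higher and 22.3% lower, and 54.8% had groups that did not overlap, so calls were common in this comparison. TWIST1, CDH2 and SNAI2 had a mean under 0.1 FPKM in 1 group and passed the filter through the other, and the count of calls is therefore a description. Without these genes, 0 of the other 5 were called higher and 5 lower, with a median log2 fold change of −2.01. TWIST1 and CDH2, the 2 called higher, were both among the genes left out. Over all 8, the genes did not move as 1 block. The epithelial adhesion genes CDH1 and EPCAM were lower, and of the mesenchymal genes CDH2 was higher while VIM and FN1 were lower. Among the transcription factors, TWIST1 was higher, SNAI1 and SNAI2 were lower, and ZEB1 and ZEB2 stayed at or under 0.240 FPKM in every library.

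**Figure D1:**
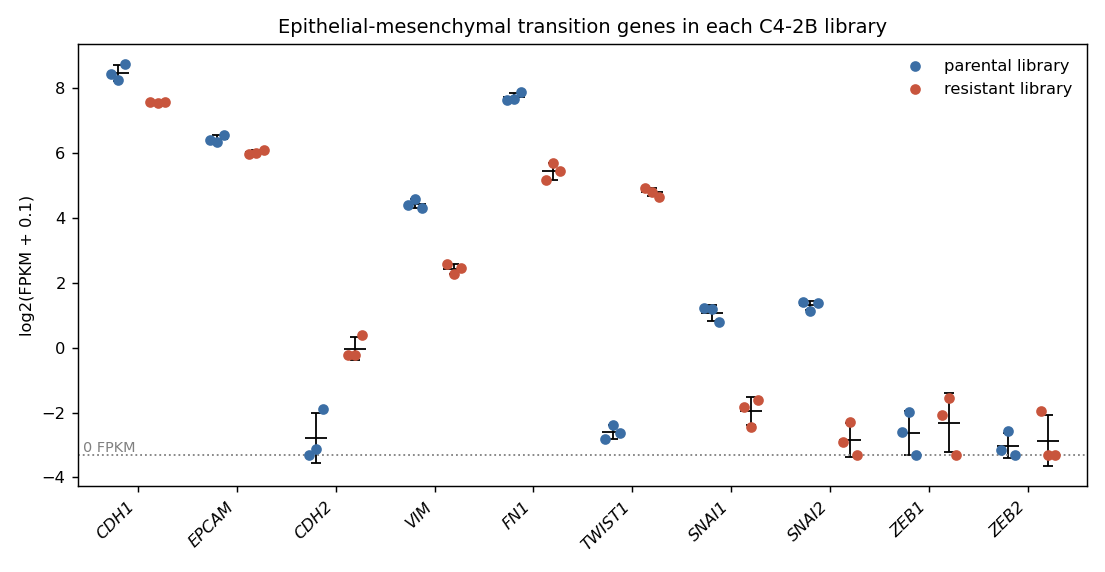
Each point is the log2(FPKM + 0.1) of a gene in 1 library, with 3 parental libraries in blue and 3 resistant libraries in red, and the bar gives the mean and SD of the log2 values. The dotted line is a value of 0 FPKM. Blue and red points are apart in the first 8 genes and mixed in ZEB1 and ZEB2, and TWIST1 goes from near the line to over 25 FPKM.

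CDH1 encodes E-cadherin, the calcium-dependent adhesion molecule of the epithelial adherens junction (ENSG00000039068, chr16:68737292-68835537, plus strand; all gene positions are GENCODE v44 spans on GRCh38, and the values are sums over a gene's annotated transcripts). It was at 349, 304 and 429 FPKM in parental cells against 189, 186 and 191 FPKM in resistant cells. All 3 resistant values lay below the lowest parental value, and the parental libraries varied among themselves more than the resistant ones. Mean CDH1 went from 361 ± 63.4 to 189 ± 2.97 FPKM (SD, n = 3 each) and the log2 fold change was −0.92 (SE 0.13, 95% interval −1.22 to −0.62, limma, adjusted p = 0.00157). At 189 FPKM, CDH1 still had a mean level above that of 98.0% of the genes tested, against 99.0% in the parental libraries. E-cadherin mRNA was thus reduced 1.91-fold and remained an abundant transcript.

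EPCAM encodes the epithelial cell adhesion molecule, a surface glycoprotein used to capture carcinoma cells (ENSG00000119888, chr2:47345158-47387601, plus strand). Its values were 83.9, 80.9 and 94.2 FPKM in parental libraries against 63.2, 63.8 and 68.9 FPKM in resistant ones. The groups were apart, but the lowest parental and the highest resistant library were near each other. On average EPCAM went from 86.3 ± 6.98 to 65.3 ± 3.17 FPKM (SD, n = 3 each) and the log2 fold change was −0.40 (SE 0.08, 95% interval −0.60 to −0.20, limma, adjusted p = 0.00902). This was the smallest change among the 8 genes, and its adjusted p ranged from 0.00185 to 0.0490 over the alternative settings.

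CDH2 encodes N-cadherin, the cadherin of neural and mesenchymal cells (ENSG00000170558, chr18:27932879-28177946, minus strand). It was listed at 0, 0.0144 and 0.170 FPKM in parental cells against 0.753, 0.753 and 1.20 FPKM in resistant cells. The lowest resistant value was above the highest parental value, and all 6 values were low. On the log2(FPKM + 0.1) scale the change was 2.75 (SE 0.52, 95% interval 1.49 to 4.02, limma, adjusted p = 0.00621). That size depends on the pseudocount, with a log2 fold change of 0.84 at a pseudocount of 1 FPKM and 4.66 at 0.01 FPKM, since 1 read on CDH2 was worth 0.0131 to 0.0191 FPKM. In the resistant libraries, mean CDH2 was 0.903 ± 0.261 FPKM (SD, n = 3) beside 189 FPKM for CDH1.

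VIM encodes vimentin, the type III intermediate filament of mesenchymal cells (ENSG00000026025, chr10:17228241-17237593, plus strand). It was at 21.1, 24.1 and 19.9 FPKM in parental cells against 5.87, 4.72 and 5.42 FPKM in resistant cells. Each parental value was over each resistant one by a margin several times the spread within a group. Mean VIM went from 21.7 ± 2.19 to 5.34 ± 0.578 FPKM (SD, n = 3 each) and the log2 fold change was −2.01 (SE 0.13, 95% interval −2.33 to −1.68, limma, adjusted p = 8.95e-05), or a 4.07-fold lower level. VIM-AS1 overlaps VIM on the other strand and was chosen after its values were seen. It was at 2.45, 4.96 and 2.58 FPKM in parental cells against 1.79, 1.13 and 1.66 FPKM in resistant cells, with a log2 fold change of −1.03 (limma, adjusted p = 0.0518). The strand setting of the authors' quantification is not given in the sources used here, so reads of this pair may have been shared.

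FN1 encodes fibronectin, a glycoprotein of the extracellular matrix that binds integrins (ENSG00000115414, chr2:215360440-215436073, minus strand). The parental libraries held 200.1, 204 and 236 FPKM, the resistant ones 36.2, 51.7 and 43.2 FPKM. The highest resistant library was far below the lowest parental one. Mean FN1 went from 213 ± 19.5 to 43.7 ± 7.76 FPKM (SD, n = 3 each) and the log2 fold change was −2.29 (SE 0.14, 95% interval −2.64 to −1.95, limma, adjusted p = 6.88e-05), or a 4.88-fold lower level. In the parental cells FN1 stood above 98.1% of the genes tested, in the same range as CDH1, and in the resistant cells above 88.1%. VIM and FN1 were thus both expressed in the parental cells and both lower in the resistant cells, while CDH2 was higher.

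TWIST1 encodes a basic helix-loop-helix factor that binds E-boxes as a dimer and acts in mesoderm and neural crest (ENSG00000122691, chr7:19020991-19117636, minus strand). It was at 0.0427, 0.0935 and 0.0619 FPKM in parental cells against 30.1, 28.0 and 25.2 FPKM in resistant cells. The resistant libraries held a well-measured transcript that was close to the limit of detection in all 3 parental libraries, where 1 read on TWIST1 was worth 0.0349 to 0.0510 FPKM. The mean went from 0.0660 ± 0.0257 to 27.8 ± 2.46 FPKM (SD, n = 3 each) and the log2 fold change was 7.40 (SE 0.22, 95% interval 6.87 to 7.93, limma, adjusted p = 5.97e-06). With a pseudocount of 1 FPKM the log2 fold change was 4.75 and with 0.01 FPKM it was 8.56. Its mean level went from above 9.92% to above 81.3% of the genes tested. The other gene listed at the TWIST1 locus of the table, AC003986.6, chosen after its values were seen, was at 0 in all 6 libraries.

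SNAI1 encodes SNAIL, a zinc finger repressor of CDH1 (ENSG00000124216, chr20:49982980-49988886, plus strand). It was at 2.25, 2.21 and 1.64 FPKM in parental cells against 0.178, 0.0835 and 0.228 FPKM in resistant cells. Every resistant library was well under every parental one. The mean went from 2.03 ± 0.340 to 0.163 ± 0.0736 FPKM (SD, n = 3 each) and the log2 fold change was −3.04 (SE 0.37, 95% interval −3.93 to −2.16, limma, adjusted p = 0.000909). SNAI1P1, a processed copy of SNAI1 that lies in UNC80 and was chosen after its values were seen, was listed at 0 in every parental library and at 0.576, 0.336 and 0.245 FPKM in the resistant libraries. UNC80 itself, chosen in the same way, was higher in the resistant libraries, with a log2 fold change of 2.24 (limma, adjusted p = 0.000342). Since reads could have been split between the copies, the level of SNAI1 is uncertain to that extent. The sum of SNAI1 and SNAI1P1 was 2.25, 2.21 and 1.64 FPKM in parental cells against 0.755, 0.419 and 0.473 FPKM in the resistant libraries, still without overlap.

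SNAI2 encodes SLUG, the second SNAIL-family repressor (ENSG00000019549, chr8:48917598-48921740, minus strand). The parental libraries held 2.53, 2.09 and 2.503 FPKM, the resistant ones 0.0319, 0.105 and 0 FPKM. The resistant values correspond to a few reads or none, since 1 read on SNAI2 was worth 0.0252 to 0.0369 FPKM. The mean went from 2.37 ± 0.247 to 0.0457 ± 0.0539 FPKM (SD, n = 3 each) and the log2 fold change was −4.15 (SE 0.40, 95% interval −5.10 to −3.19, limma, adjusted p = 0.000366). A pseudocount of 1 FPKM gave −1.69 and a smaller one of 0.01 FPKM gave −6.03.

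ZEB1 and ZEB2 encode the zinc finger homeobox repressors that form a mutual loop with the microRNAs of the miR-200 family. ZEB1 (ENSG00000148516, chr10:31318495-31529814, plus strand) was at 0.0658, 0.152 and 0 FPKM in parental cells against 0.140, 0.240 and 0 FPKM in resistant cells. ZEB2 (ENSG00000169554, chr2:144364364-144521057, minus strand) was at 0.0120, 0.0672 and 0 FPKM in parental cells against 0.160, 0 and 0 FPKM in resistant cells. Each group of each gene had a library at 0 and the groups overlapped. Both missed the filter, ZEB1 with a mean of 0.0996 FPKM just under it and ZEB2 with 0.0399 FPKM. In the fit without a filter the log2 fold change was 0.32 for ZEB1 (SE 0.58, limma, adjusted p = 0.694) and 0.16 for ZEB2 (SE 0.45, limma, adjusted p = 0.810). A difference was not detectable at these levels, which does not show that there was none. ZEB1-AS1, a divergent RNA at the ZEB1 start chosen after its values were seen, was at 6.75, 2.72 and 9.33 FPKM and at 7.59, 5.92 and 3.88 FPKM, with a log2 fold change of 0.01 (limma, adjusted p = 0.993).

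**Figure D2:**
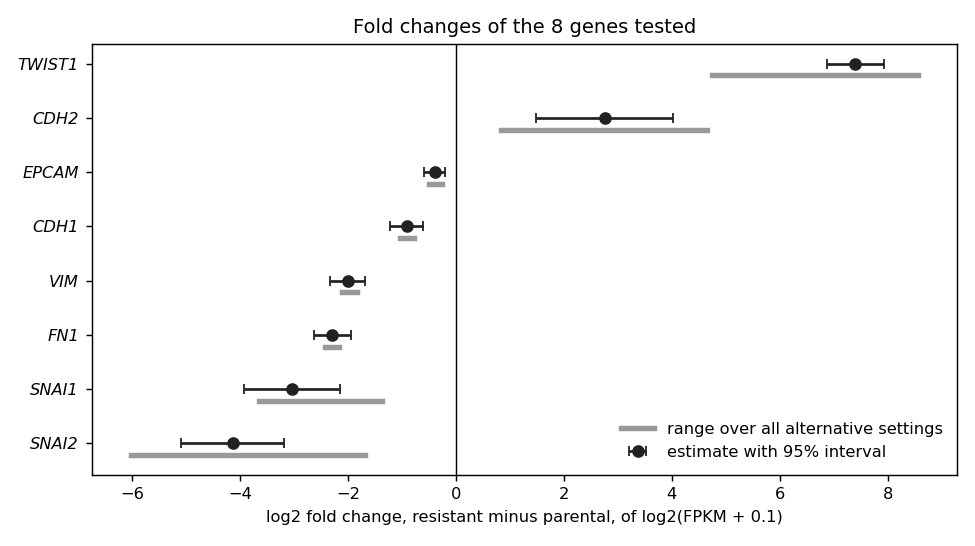
Points give the log2 fold change (resistant minus parental, of log2(FPKM + 0.1)) of the 8 genes tested with the 95% interval, and the grey bars below them give the range over all alternative settings. TWIST1 at 7.40 and CDH2 at 2.75 lie to the right of 0, the other 6 lie to the left from −0.40 to −4.15, and no grey bar reaches 0.

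Ordered by mean level, the parental cells had CDH1, FN1, EPCAM, VIM, SNAI2 and SNAI1, with the remaining 4 genes under 0.1 FPKM. SNAI2 and SNAI1 did not differ beyond their spread in that order, since the lowest SNAI2 value was below the highest SNAI1 value. In the resistant cells the order was CDH1, EPCAM, FN1, TWIST1, VIM and CDH2, with the last 4 genes under 0.2 FPKM. As a description chosen after the values were seen, the summed FPKM of the 5 transcription factors was shared out in each library. SNAI1 and SNAI2 together made up 97.5%, 93.2% and 98.5% of it in parental libraries against 0.687%, 0.665% and 0.898% in resistant ones. TWIST1 made up 0.872%, 2.03% and 1.47% of it in parental libraries against 98.3%, 98.5% and 99.1% in resistant ones. The sum itself was 4.204 to 4.895 FPKM in parental libraries against 25.5 to 30.6 FPKM in resistant ones, so the predominant factor was another one and its level was higher.

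The rest of the EMT programme was read from lists of genes by role. The lists were drawn up with earlier results of these data known, so their shares called are descriptions and not tests. Lists are described by their counts and their median log2 fold change, beside −0.05 over all genes tested. Genes with a mean under 0.1 FPKM in 1 group passed the filter only through the other, which pulls counts and medians toward the group in which they are high, so for the EMT lists both are given with and without such genes where a list holds any. Of 26 epithelial junction genes, all tested, 6 were called higher, 7 lower and 13 were not called, with a median of −0.02. The share called, 50.0%, was near the 44.4% of all genes tested and under the 53.5% of tested genes at 1 FPKM or more in either group. TJP1, the tight junction scaffold ZO-1, was at 159, 154 and 176 FPKM in parental cells against 24.02, 25.4 and 27.4 FPKM in resistant cells, with a log2 fold change of −2.66 (SE 0.09, limma, adjusted p = 8.02e-06). JUP, plakoglobin of desmosomes and adherens junctions, went from 182 ± 1.30 to 54.6 ± 3.56 FPKM (SD, n = 3 each) and the log2 fold change was −1.74 (SE 0.07, limma, adjusted p = 1.59e-05). CLDN7, a claudin with the highest mean of the list over the 6 libraries, was higher, at 213 ± 5.50 against 367 ± 3.93 FPKM (SD, n = 3 each) and the log2 fold change was 0.78 (SE 0.05, limma, adjusted p = 9.83e-05). The catenins of the E-cadherin complex, chosen after their values were seen, were not called. CTNNA1 had a log2 fold change of 0.18 (limma, adjusted p = 0.209), CTNNB1 of 0.22 (adjusted p = 0.0890) and CTNND1 of −0.16 (adjusted p = 0.199). Among the desmosomal genes, also chosen after their values were seen, DSG2 and DSC2 were called lower with log2 fold changes of −1.63 and −1.74 (limma, adjusted p = 3.87e-05 and 0.000164). DSP, PKP2 and PKP3 were not called, with log2 fold changes of −0.32, 0.19 and 0.05 (limma, adjusted p = 0.0684, 0.294 and 0.759).

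Of 16 genes for epithelial surface proteins and proteases, 15 were tested, and 73.3% of these were called, against 44.4% of all genes tested. Among tested genes at 1 FPKM or more in either group, 53.5% were called. The calls were 3 higher and 8 lower, 4 genes were not called, and the median was −0.46. RAB25, an epithelial small GTPase of membrane recycling, was at 64.3, 60.5 and 54.9 FPKM in parental cells against 3.12, 4.23 and 1.97 FPKM in resistant cells, with a log2 fold change of −4.29 (SE 0.27, limma, adjusted p = 6.85e-05). CD24, a surface sialoglycoprotein, was at 3.70, 2.46 and 0.209 FPKM in parental cells against 13.6, 13.9 and 12.9 FPKM in resistant cells, with a log2 fold change of 3.23 (SE 0.90, limma, adjusted p = 0.0273). Parental replicate 2 was low for CD24, and the call was lost without the variance trend (adjusted p = 0.0501), without parental replicate 1 (0.0581) and without resistant replicate 0 (0.111), 1 (0.0998) or 2 (0.1004), all limma values. SPINT2, a protease inhibitor with the highest mean of the list over the 6 libraries, was at 311 ± 17.9 and 328 ± 21.7 FPKM (SD, n = 3 each), with a log2 fold change of 0.08 (SE 0.08, limma, adjusted p = 0.436) that turned to −0.03 with libraries scaled without genes under 300 bases.

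Of 13 transcriptional and splicing regulators of epithelial identity, all tested, 2 were called higher, 6 lower and 5 were not called, with a median of −0.68. That is a share called of 61.5%, against 44.4% of all genes tested. Among tested genes at 1 FPKM or more in either group, 53.5% were called. EHF, an ETS-family factor of epithelia, was at 302, 297 and 364 FPKM in parental cells against 45.5, 35.7 and 40.0 FPKM in resistant cells, with a log2 fold change of −2.99 (SE 0.12, limma, adjusted p = 1.80e-05). GRHL2, a grainyhead factor that activates CDH1, went from 133 ± 4.87 to 52.1 ± 1.32 FPKM (SD, n = 3 each) and the log2 fold change was −1.35 (SE 0.06, limma, adjusted p = 2.62e-05). ELF3, another epithelial ETS factor, was higher, at 14.1 ± 2.96 against 39.5 ± 2.69 FPKM (SD, n = 3 each) and the log2 fold change was 1.499 (SE 0.17, limma, adjusted p = 0.000717). ESRP1, a splicing regulator that is characteristic of epithelial cells and was chosen after its values were seen, was at 42.7, 40.9 and 54.4 FPKM and at 43.2, 44.6 and 48.4 FPKM, with a log2 fold change of −0.01 (SE 0.12, limma, adjusted p = 0.960). ESRP2, chosen in the same way, was called lower, at 53.9 ± 1.93 against 37.1 ± 4.57 FPKM (SD, n = 3 each). Its log2 fold change was −0.55 (SE 0.11, limma, adjusted p = 0.00724).

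**Figure D3:**
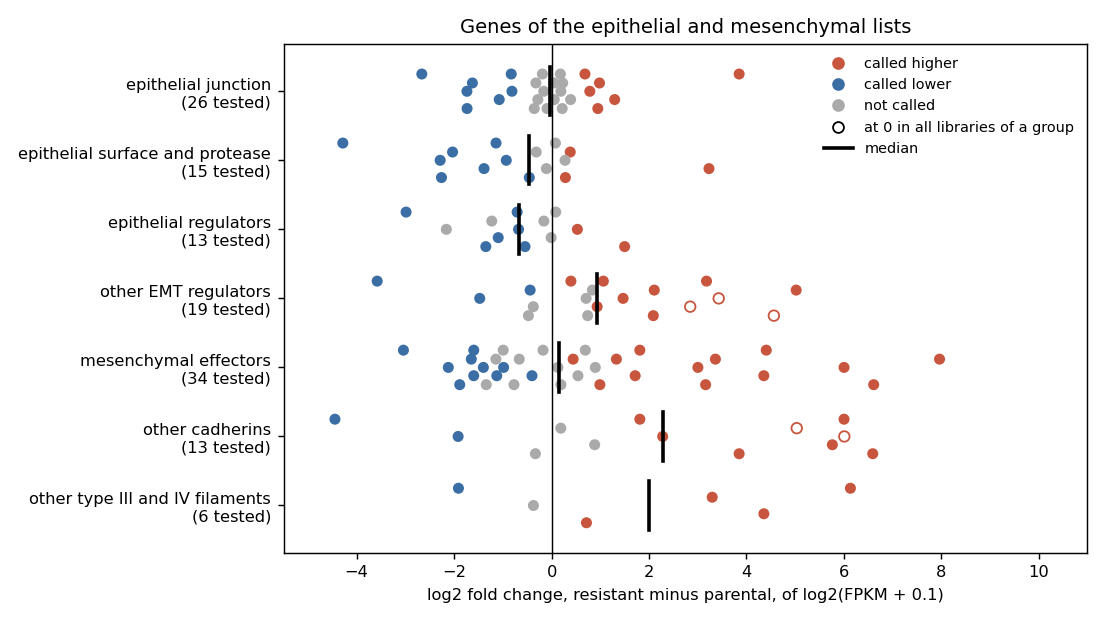
Each point is the log2 fold change (resistant minus parental, of log2(FPKM + 0.1)) of a tested gene in 1 of 7 lists, red where called higher, blue where called lower and grey where not called, and the black bar is the median of the list. Open circles are genes at 0 in all libraries of a group, whose position depends on the pseudocount. The medians run from −0.68 for the epithelial regulators to 2.28 for the other cadherins, and every list holds genes on both sides of 0.

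Of 22 other EMT regulators, 19 were tested, and 73.7% of these were called, against 44.4% of all genes tested. The calls were 11 higher and 3 lower, and 5 genes were not called. The median was 0.93 (0.79 without the 3 genes at 0 in all parental libraries). Of the 19, 7 had a parental and 1 a resistant mean under 0.1 FPKM, and of the other 11, 5 were called higher and 2 lower, with a median of 0.71. HMGA2, an architectural chromatin protein that activates SNAI1 and TWIST1 in other cells, was at 0, 0.220 and 0 FPKM in parental cells against 4.57, 4.196 and 5.36 FPKM in resistant cells, with a log2 fold change of 5.02 (SE 0.53, limma, adjusted p = 0.000535). PRRX2, a homeobox factor of limb and craniofacial mesenchyme, was listed at 0 in every parental library and at 1.53, 3.14 and 2.39 FPKM in the resistant libraries (limma, adjusted p = 0.000254). GSC, goosecoid, a homeobox factor of the embryonic organizer, went the other way, from 3.30 ± 0.308 to 0.201 ± 0.118 FPKM (SD, n = 3 each) and the log2 fold change was −3.58 (SE 0.40, limma, adjusted p = 0.000657). ID1, which had the highest mean of the list over the 6 libraries but not in the parental ones, was at 40.7, 40.0 and 39.5 FPKM in parental cells against 170.1, 179 and 170.2 FPKM in resistant cells, with a log2 fold change of 2.11 (SE 0.06, limma, adjusted p = 5.40e-06). ID2, chosen after its values were seen, had a log2 fold change of 3.18 (SE 0.14, limma, adjusted p = 2.15e-05). ID1 and ID2 are inhibitors, since their helix-loop-helix proteins pair with partners of TWIST1 and lack a DNA-binding region, and they count here as regulators and not as drivers of EMT. TWIST2, the paralog of TWIST1, was listed at 0 in all 6 libraries and was also chosen after its values were seen.

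Of 43 mesenchymal effectors, 34 were tested, and 67.6% of these were called, against 44.4% of all genes tested. The calls were 13 higher and 10 lower, 11 genes were not called, and the median was 0.16. Of the 34, 9 had a parental and 1 a resistant mean under 0.1 FPKM, and of the other 24, 6 were called higher and 10 lower, with a median of −0.72, so the sign of the median depends on those genes. TNC, the matrix glycoprotein tenascin C, was at 0.0218, 0.0207 and 0.102 FPKM in parental cells against 36.1, 34.4 and 37.0 FPKM in resistant cells, with a log2 fold change of 7.96 (SE 0.27, limma, adjusted p = 8.89e-06). CD44, the hyaluronan receptor, was at 0.0120, 0.543 and 0.181 FPKM and at 23.7, 24.1 and 32.8 FPKM, a log2 fold change of 6.61 (SE 0.61, limma, adjusted p = 0.000325). CALD1, the actin-binding protein caldesmon, with the highest mean of the list over the 6 libraries but not in the resistant ones, went from 125 ± 16.8 to 56.9 ± 3.41 FPKM (SD, n = 3 each) and the log2 fold change was −1.13 (SE 0.11, limma, adjusted p = 0.000468). The matrix genes of this list, like the 10 genes above, did not share a direction: TNC was called higher, as was VCAN, the proteoglycan versican, with a log2 fold change of 4.41 (limma, adjusted p = 0.000148), while LOX, a collagen cross-linking enzyme, was called lower with −2.12 (limma, adjusted p = 0.00159) and COL1A1 with −0.66 was not called (limma, adjusted p = 0.192). VCAN, LOX and COL1A1 were chosen after their values were seen.

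CDH1 and CDH2 belong to a family of cadherins, of which 23 were in the table. Of the 21 others, 13 were tested, and 76.9% of these were called, against 44.4% of all genes tested. The calls were 8 higher and 2 lower, and 3 genes were not called. The median was 2.28 (1.81 without the 2 genes at 0 in all parental libraries). Of the 13, 6 had a parental and 2 a resistant mean under 0.1 FPKM, and of the other 5, 2 were called higher and 1 lower, with a median of 0.88. Of these, CDH3 is also a junction gene and CDH6 and CDH11 are also mesenchymal effectors. CDH3, the P-cadherin of basal epithelia, was at 3.03, 3.56 and 2.95 FPKM in parental cells against 41.3, 53.8 and 47.0 FPKM in resistant cells, with a log2 fold change of 3.85 (SE 0.14, limma, adjusted p = 1.22e-05). CDH7, a type II cadherin of the nervous system, was at 0.0357, 0.0186 and 0 FPKM and at 10.3, 11.3 and 12.1 FPKM, a log2 fold change of 6.59 (SE 0.27, limma, adjusted p = 1.73e-05). CDH17, the liver-intestine cadherin, was listed at 0 in every parental library and at 6.29, 7.03 and 5.76 FPKM in the resistant libraries (limma, adjusted p = 2.69e-05). CDH6, K-cadherin of the kidney, was at 0, 0 and 0.00987 FPKM and at 5.89, 6.93 and 6.78 FPKM, a log2 fold change of 6.00 (SE 0.28, limma, adjusted p = 2.66e-05). CDH26, chosen after its values were seen, was the gene that went furthest the other way, from 3.50, 4.11 and 4.95 FPKM to 0.0794, 0.310 and 0 FPKM, a log2 fold change of −4.45 (SE 0.55, limma, adjusted p = 0.00103). Each of CDH3, CDH6, CDH7 and CDH17 exceeded CDH2 in every resistant library.

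As a description chosen after the values were seen, CDH1 made up 97.0%, 95.7% and 96.9% of the summed cadherin FPKM in parental libraries against 67.4%, 62.7% and 65.7% in resistant ones. CDH3 took 0.842%, 1.12% and 0.667% in parental libraries against 14.7%, 18.2% and 16.1% in resistant ones. The number of cadherins with a mean of at least 1 FPKM was 5 in the parental and 8 in the resistant cells. E-cadherin remained the most abundant cadherin mRNA in all 6 libraries, with several others beside it in the resistant cells.

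**Figure D4:**
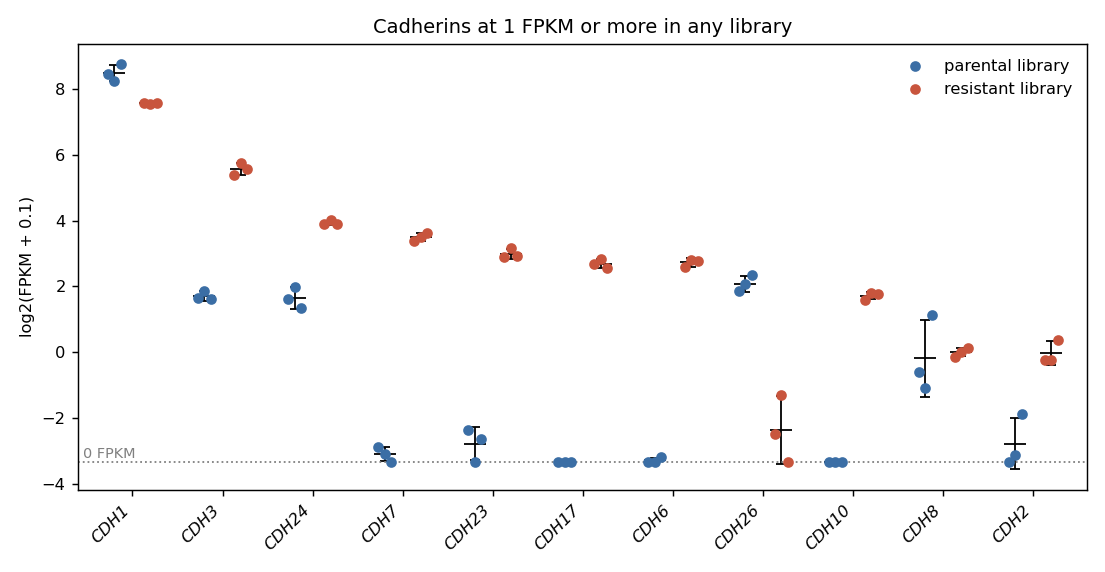
Each point is the log2(FPKM + 0.1) of 1 of the 11 cadherins that reached 1 FPKM in any library, with parental libraries in blue, resistant libraries in red and the mean and SD of the log2 values as bars. The dotted line is a value of 0 FPKM. CDH1 is the highest in both groups and lower in the resistant libraries, CDH2 is the last in the order, and CDH3, CDH7, CDH17 and CDH6 are higher in the resistant libraries.

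Vimentin is 1 of the type III and type IV intermediate filament proteins. Of 9 other genes of these types, 6 were tested, with 4 called higher, 1 lower and 1 not called, and a median of 2.01. That is a share called of 83.3%, against 44.4% of all genes tested. Without the 2 tested genes that had a mean under 0.1 FPKM in 1 group, 3 of 4 were called higher and 0 lower by limma, with a median of 2.01. NES, nestin of neural progenitors, with the highest mean of them over the 6 libraries but not in the parental ones, was at 1.20, 1.32 and 1.28 FPKM in parental cells against 26.3, 28.0 and 29.3 FPKM in resistant cells, with a log2 fold change of 4.36 (SE 0.13, limma, adjusted p = 5.57e-06). NEFH, the heavy neurofilament subunit, was at 0.0122, 0.0507 and 0.0366 FPKM and at 8.84, 9.35 and 9.36 FPKM, a log2 fold change of 6.13 (SE 0.27, limma, adjusted p = 2.16e-05). PRPH, peripherin of peripheral neurons, went from 1.46 ± 0.328 to 15.1 ± 2.26 FPKM (SD, n = 3 each) and the log2 fold change was 3.30 (SE 0.22, limma, adjusted p = 8.39e-05). VIM was thus lower while NES, NEFH and PRPH were higher. Of the miR-200 and miR-205 precursor loci, 6 were in the table and 3 passed the filter, and 0 of the 3 were called by limma or had an unadjusted p under 0.05. MIR429 was at 179 FPKM in parental replicate 1 and at 0 in the other 5 libraries, and MIR200B and MIR141, chosen after their values were seen, were each above 0 in a single library as well, so these short genes were not measurable here.

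Markers of the luminal prostate cell and of other cell types were read beside these genes, and those named singly were chosen after their values were seen. The 10 luminal prostate markers were all expressed, with 2 called higher, 7 lower and 1 not called. That is a share called of 90%, against 44.4% of all genes tested. Among tested genes at 1 FPKM or more in either group, 53.5% were called. Their summed FPKM was 4360 to 5122 in the parental and 1311 to 1415 in the resistant libraries. In the parental libraries most of that sum was KLK3, prostate-specific antigen, which had a log2 fold change of −5.85 (SE 0.09, limma, adjusted p = 1.10e-06). The neuroendocrine markers CHGA, CHGB and SYP, 3 of 5, were called higher, with sums of 0.926 to 2.44 and 59.0 to 65.9 FPKM, while the defining factor INSM1 stayed at or under 0.0558 FPKM in every library. Only 3 of the 5 were tested, so the share called was 100%, against 44.4% of all genes tested. Of these 3, CHGA and CHGB had a parental mean under 0.1 FPKM and passed the filter only through the resistant libraries. Of the 6 fibroblast markers, 4 were tested and 2 called higher, with sums of 6.65 to 9.04 and 8.26 to 14.7 FPKM. Their share called was 50%, against 44.4% of all genes tested. Both of those called had a parental mean under 0.1 FPKM and passed the filter only through the resistant libraries, and 0 of the other 2 were called. Among the fibroblast markers, the collagen gene COL1A2 and the receptor gene PDGFRA stayed at or under 0.132 FPKM in every library, while DCN, decorin, was at 0 in every parental library and at 3.63, 3.78 and 4.35 FPKM in the resistant libraries. The basal markers KRT5, KRT14 and TP63 summed to at most 0.927 FPKM, and the leukocyte and endothelial markers PTPRC, PECAM1, VWF and CDH5 to at most 1.14 FPKM in any library. The part of these marker changes in the changes of the 10 genes was not tested.

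Position was described from the nearest tested protein-coding gene on each side of the 8 called genes, a choice made after the values were seen. Of these 16 neighbours, 7 were called in the same direction as the EMT gene, 4 in the other direction and 5 were not called. Over all genes tested, 22.1% were called higher and 22.3% lower, and 44.4% is the share called in either direction. Whether position had a part in these changes was not tested. CDH3 ends 9.79 kb before CDH1 on chromosome 16, and the neighbours changed in opposite directions, with log2 fold changes of 3.85 and −0.92. TANGO6, 7.96 kb on the other side of CDH1, had a log2 fold change of 0.08 (limma, adjusted p = 0.747). HDAC9, a class IIa histone deacetylase gene 18.6 kb from TWIST1, was at 0.0201, 0 and 0 FPKM in parental cells against 2.71, 4.32 and 1.61 FPKM in resistant cells, with a log2 fold change of 4.70 (SE 0.45, limma, adjusted p = 0.000369). HDAC9 had a parental mean under 0.1 FPKM and passed the filter only through the resistant libraries. The nearest tested protein-coding gene on the other side, TWISTNB, lies 578 kb away and had a log2 fold change of 1.01 (limma, adjusted p = 0.00240). TWIST1 and both of these neighbours were called higher. All distances are between annotated gene spans. The TWIST1 span runs from 19020991 to 19117636 on the minus strand, so its start lies at the end away from HDAC9. The 18.6 kb is therefore not the distance of HDAC9 from the TWIST1 start, which is longer. ATIC, 10.4 kb from FN1, had a log2 fold change of −1.20 (limma, adjusted p = 0.000145).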

How the data were processed

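RNA-Seq of C4-2B parental (n = 3) and enzalutamide resistant cells (n = 3) was analysed from the deposited table. Per the study's methods, the authors used TrimGalore on single-end 50 bp reads, aligned with STAR to GRCh38 and used Cufflinks with GENCODE. The header of the deposited table names no unit, and its values were taken as FPKM because Cufflinks gives that unit and they are fractional. The submitters' processing notes name another build, mm10, with Trimmomatic 0.27 and FastQC 0.10.1, but the identifiers are human. How the deposited FPKM values were scaled between libraries is not given in the sources used here. The values are not counts, so depth was estimated from the step that 1 read makes in the low values of 13747 single-transcript genes of 600 to 8000 bases, assuming fragments of 200 bases, and no counting interval was possible. Of the gene identifiers, 56935 matched GENCODE v44, which covers 98.4% of those tested.

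The groups were compared with limma 3.58.1 (trend, two-sided) in R 4.3.3 on log2(FPKM + 0.1) over genes whose mean reached 0.1 FPKM, with Benjamini-Hochberg adjustment and a threshold of 0.05. Gene by gene, an exact permutation test of 3 against 3 libraries cannot go below p = 0.1. Tables were handled with Python 3.11.15, pandas 2.3.3 and numpy 2.4.6, and matplotlib 3.10.9 drew the figures. The lists were the epithelial junction, epithelial surface and protease, epithelial regulator, other EMT regulator, mesenchymal effector, other cadherin, other type III and IV filament and miR-200 and miR-205 lists, and markers of luminal, basal, fibroblast, leukocyte and endothelial, and neuroendocrine cells. The members and lists were chosen with earlier results of these data known. Named genes were the 10 members and, of each list other than the markers, the 3 called genes with the largest change among those at 1 FPKM or more in either group and the gene with the highest mean over the 6 libraries; any other was picked with its values in view and is marked so. A few genes that fall under this rule or the lists are not named here. Alternatives covered the pseudocount, the filter, the scaling, the variance trend, a replicate block and each library left out. Same-numbered libraries were checked for pairing. No library pair held identical values.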

Additional observations from a re-analysis of the deposited data

How the results depend on the processing

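All 8 tested EMT genes kept their direction and their call in every alternative in which they were fitted. With a filter at a mean of 1 FPKM, CDH2 was not in the fit, and 1 member was called higher. That filter also left 7 other EMT regulators called higher, 1 other cadherin called lower and 0 other filament genes called lower. Without the variance trend 0 surface and protease genes were called higher, and with libraries scaled without genes under 300 bases 1 epithelial regulator was called higher and SPINT2 turned to a log2 fold change of −0.0302 (limma, adjusted p = 0.680). The cause of these changes was not tested, other than the fewer genes under the filter. With 1 library left out, surface and protease genes called higher ranged from 0 to 3 (1 without parental replicate 1 or resistant replicate 0, and 0 without resistant replicate 1), and mesenchymal effectors called lower from 6 to 8 (6 without parental replicate 1, resistant replicate 0 or resistant replicate 2). The number of genes called, 10868, ranged from 9324 to 10152 with 1 library left out and from 9021 to 11219 under the other alternatives.

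The replicate numbers were not taken as pairing, since the deviations of same-numbered libraries had correlations of 0.00802, 0.0165 and −0.00301. With the replicate number as a block, 9463 genes were called, 1 surface and protease gene was called higher and 1 other EMT regulator lower, and the 8 EMT genes kept their calls.

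Depth limits ZEB1, ZEB2, CDH2 and the low group of TWIST1, SNAI1 and SNAI2, all at low values, so their fold changes depend on the pseudocount. So do those of HMGA2, TNC, VCAN, CTGF, CDH6, CDH7 and NEFH, whose parental mean was under 0.1 FPKM. These passed the filter only through the resistant libraries, so their calls are descriptions. Over the alternatives that kept all 6 libraries, the log2 fold change ranged from 2.41 to 7.37 for HMGA2 and from 5.13 to 9.55 for TNC. It ranged from 2.91 to 9.02 for CDH6, from 3.58 to 8.90 for CDH7 and from 3.30 to 7.85 for NEFH.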

Other observations

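Within the junction list, the genes of the tight junction and of cell polarity split in direction, read gene by gene after their values were seen. CLDN4, a claudin, was at 106 ± 4.398 FPKM in parental and 171 ± 2.501 FPKM in resistant libraries (SD, n = 3 each), a log2 difference of 0.68 (limma, adjusted p = 0.000269). TJP3 (ZO-3) and LLGL2, a basolateral polarity protein, were higher too, by 1.29 and 0.98 on the log2 scale (limma, adjusted p = 0.000493 and 0.000313). CLDN3 and PATJ, an apical polarity scaffold, were lower, with log2 differences of −0.83 and −1.08 (limma, adjusted p = 0.00346 and 0.000882). The scaffolds TJP1 and TJP3 thus did not share a direction.

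CTGF and CYR61, matricellular proteins of the same family, also parted; they and PDGFRB were chosen after their values were seen. CTGF was at 0.0253, 0 and 0.1496 FPKM in parental against 3.31, 3.59 and 2.04 FPKM in resistant libraries, a log2 difference of 4.36 (SE 0.47, limma, adjusted p = 0.000613). CYR61 was at 3.33, 3.12 and 3.49 FPKM against 0.948, 1.18 and 0.962 FPKM, a log2 difference of −1.60 (SE 0.21, limma, adjusted p = 0.00134). PDGFRB, the receptor of pericytes and fibroblasts, was at 1.39, 3.55 and 1.38 FPKM against 0.241, 0.0331 and 0.216 FPKM, a log2 difference of −3.04 (SE 0.57, limma, adjusted p = 0.00573). No explanation of these differences was tested.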
